A study of Mus musculus with 4 samples.

Results

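The genes described here are 39 heat shock proteins, co-chaperones and heat shock factors of the mouse, taken by symbol from a fixed list and matched between stages by Ensembl identifier, out of the 30406 genes that all 4 count tables list. They comprise 7 cytosolic Hsp70 and Hsp110 genes, 2 cytosolic Hsp90 genes, 2 small heat shock proteins, 7 cytosolic J proteins, 9 cytosolic co-chaperones, 4 mitochondrial chaperones, 6 chaperones of the endoplasmic reticulum (ER) and 2 heat shock transcription factors. Of the 39, 36 had a mean of at least 20 CPM (UMIs per 1000000 UMIs of the group) over the 8 groups of stage and tissue and enter the counts below, as did 6237 genes in all, whereas Dnaja3, Dnaja4 and Hspbp1 were under that minimum and are given by value only.

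The cells came from mammary tissue of wild-type C57B6 (C57 B6/N in the study's methods) female mice at embryonic days E13.5, E14.5 and E15.5 and on the day of birth, P0, with tissue of several embryos pooled into 1 library per stage, and were sorted with and without EpCAM after CD45, CD31 and Ter119 positive cells had been gated out. Embryonic rudiments and P0 glands were digested with different ratios of collagenase to hyaluronidase, and the P0 cells alone went through red cell lysis in NH4Cl. For the dissection of embryonic buds, the methods refer to a protocol with Dispase II and Pancreatin-Trypsin steps. Each stage was dissected in its own session. Each stage therefore differs from the others by its library and dissection session and, at P0, by its dissociation, and these cannot be told apart from age. The E15.5 table was made with Cell Ranger 3.1.0 and the others with 6.0.0, so a difference of E15.5 from its neighbours cannot be told apart from that change either.

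A barcode was kept as a cell with 5000 UMIs or more, of which 6% or less were mitochondrial. In the order of the stages, 235 of 981, 76 of 807, 816 of 2642 and 503 of 1466 barcodes were kept, and the libraries shared 0 kept barcodes. A cell was called epithelial or mesenchymal by the larger of its summed UMIs of Epcam, Krt8, Krt18, Krt5 and Krt14 and of Col1a1, Col1a2 and Col3a1. This gave 98, 45, 532 and 230 epithelial and 135, 31, 283 and 273 mesenchymal cells in the same order, with median depths of 18968, 26725, 24696 and 9973 UMIs in the epithelial and 16438, 24268, 24376 and 8743 UMIs in the mesenchymal cells. The 6 other epithelial genes, Cdh1, Cldn4 and others, summed to 1203 to 2996 CPM in the epithelial and 5.97 to 97.3 CPM in the mesenchymal groups, and 6 other mesenchymal genes, Pdgfra, Twist1 and others, to 153 to 276 CPM and 2819 to 8961 CPM. The calls hold skin as well as mammary epithelium. After taking out skin cells, the study counted far fewer mammary epithelial cells at E13.5 than are called epithelial here. Skin may thus outnumber mammary cells in that group, and epithelial ratios between stages compare different mixes. Keratin levels in the epithelial cells differed between the stages. Krt5, a basal keratin, was at 1196, 819.9, 775 and 17.6 CPM over the 4 stages. Krt8, a luminal one, was at 246, 169.6, 928 and 5180.1 CPM. Both are among the genes of the tissue call, and these levels cannot tell a change of makeup from one of expression. Endothelial, immune, melanocyte, glial and muscle genes each summed to at most 35.1 CPM in any group. Hemoglobin and Alas2 were at or below 10.7 CPM except in the P0 mesenchymal cells (6580.5 CPM), where 4 cells held more than 20 hemoglobin UMIs each, and no count of members below changed without those 4 cells.

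Chaperones bind unfolded or partly folded proteins and help them to fold, assemble or be degraded. Hsp70 proteins work in cycles of ATP hydrolysis that J proteins start and nucleotide exchange factors such as Bag proteins and Hsp110 end, while Hsp90 takes over late folding clients together with its own co-chaperones. Cytosolic stress activates Hsf1, which binds heat shock elements in promoters and induces genes such as Hspa1a, Hspa1b and Hsph1, whereas unfolded proteins in the ER activate a separate response that induces Hspa5 and other ER chaperones through ER stress response elements. Growing cells make chaperones without stress as well, and enzymatic dissociation is known to induce heat shock and immediate early genes in single-cell work.

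Heat shock elements were found in promoters of some cytosolic and mitochondrial members, and ER stress response elements only in promoters of ER members. RefSeq promoter windows from 250 bases before to 50 after the start, on GRCm38.p6, were found for 33 of the 39 members, and none for Hsp90aa1, Hsp90ab1, Hspa8, Hspa9, Hspa13 and Hsf1. On both strands, 3 neighbouring heat shock units in the form GAANNTTCNNGAA occurred in windows of 5 of these 33 members (Hsph1, Dnajb6, Chordc1, Hspd1 and Hspe1), against 0.662% of the 27025 genes in the table. The windows of Hspd1 and Hspe1 hold the same stretch, which thus counts for both genes. The head-to-head pair GAANNTTC, which the longer form contains, occurred for 13 members, against 9.04% of all genes, and none of the 13 was an ER member. Only 5 ER members had a window, so with a share of 9.04% nothing is read from that absence. An ER stress response element, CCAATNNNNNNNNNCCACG, occurred for 3 members, Hspa5, Hsp90b1 and Dnajc3, all of the ER, against 0.137% of all genes. The following stretches are shown first for Hspa1a, Hspb1 and Hspe1, picked among the 13 members with the pair. All of them were past 2-fold lower from E15.5 to P0 in both tissues. Then come Dnajb6, a 3-unit holder with ratios of 0.667 and 0.751 in that comparison, and the 3 members with the ER element. Hspa4l, Ahsa1, Ptges3, Cacybp and Hsf2 were also past 2-fold lower in both tissues, and their windows hold no pair. Bag3 holds the pair and was at 3.90 in mesenchymal cells. The matched letters are in capitals. Each is written in the direction of its gene. A match is a description of letters, not a bound site.
Hspa1a (chr17:34972208-34972305, minus strand): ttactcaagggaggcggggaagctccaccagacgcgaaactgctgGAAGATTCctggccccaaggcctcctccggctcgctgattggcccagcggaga
Hspb1 (chr5:135887757-135887874, plus strand): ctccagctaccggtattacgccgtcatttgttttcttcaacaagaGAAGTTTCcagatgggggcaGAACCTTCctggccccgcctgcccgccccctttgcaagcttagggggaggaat
Hspe1 (chr1:55088054-55088081, plus strand): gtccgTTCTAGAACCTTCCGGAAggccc
Dnajb6 (chr5:29735844-29735872, plus strand): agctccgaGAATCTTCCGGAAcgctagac
Hspa5 (chr2:34772020-34772048, plus strand): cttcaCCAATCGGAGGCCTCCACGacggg
Hsp90b1 (chr10:86705488-86705694, minus strand): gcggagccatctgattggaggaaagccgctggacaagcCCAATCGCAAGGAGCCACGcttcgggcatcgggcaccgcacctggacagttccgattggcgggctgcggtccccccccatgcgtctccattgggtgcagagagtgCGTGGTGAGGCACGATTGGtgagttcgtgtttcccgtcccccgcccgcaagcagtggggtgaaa
Dnajc3 (chr14:118937782-118937890, plus strand): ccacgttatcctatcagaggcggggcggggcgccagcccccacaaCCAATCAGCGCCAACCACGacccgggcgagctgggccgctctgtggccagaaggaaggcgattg
The capitals mark the pair in Hspa1a and Hspb1 (with 2 separate pairs in Hspb1), overlapping 3-unit elements in Hspe1, 1 such element in Dnajb6, and ER stress response elements in the last 3 genes (2 of them in Hsp90b1). The stretches of Hspe1, Dnajb6 and Hspa5 are kept to 29 bases or fewer, since they lie before the RefSeq start but inside a 5' UTR of a GENCODE M21 transcript. The Hspe1 stretch lies between the RefSeq starts of Hspe1 and Hspd1, which are read in opposite directions from it, while the GENCODE span of Hspd1 covers it. The windows of Hspa1a and Hspb1 hold no 3-unit element in this form, and that of Hspa1b shares 296 of its 300 bases with that of Hspa1a.

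The summed chaperones were highest in the E15.5 library in both tissues, and the ER sum, carried by Hspa5, was highest at P0. All 39 members together made up 1.54%, 1.80%, 2.76% and 1.32% of the UMIs of the epithelial cells at the 4 stages, in the order used throughout (from E13.5 to P0), and 1.61%, 1.85%, 2.33% and 1.22% of those of the mesenchymal cells. In epithelial cells, the 27 cytosolic members summed to 12492, 14761, 23478 and 9961 CPM, the 4 mitochondrial ones to 1554, 2097, 2816 and 921 CPM, and the 6 ER ones to 1294, 1092, 1267 and 2291 CPM, in the order of the stages. In mesenchymal cells the same sums were 12624, 14564, 18709 and 7953 CPM, 1736, 1891, 2807 and 719 CPM and 1677, 1977, 1666 and 3469 CPM. In CPM the cytosolic and mitochondrial sums thus peaked at E15.5 and were lowest at P0, while the ER sums were highest at P0. With scaling by the median of ratios, the mesenchymal ratio from E13.5 to P0 went from 0.630 to 1.00 for the cytosolic sum and from 0.725 to 1.16 for the 20 cytosolic members outside the heat-inducible list (described below), so that the low mesenchymal P0 level of these sums against E13.5 depends on CPM. From E15.5 to P0 the cytosolic ratio was 0.424 (0.419 to 0.430) in epithelial and 0.425 (0.419 to 0.431) in mesenchymal cells, the mitochondrial ratio 0.327 (0.314 to 0.341) and 0.256 (0.244 to 0.269), and the ER ratio 1.81 (1.76 to 1.86) and 2.08 (2.03 to 2.14). Ranges in brackets are exact 95% intervals, from the conditional binomial distribution for ratios and the Poisson distribution for levels, and cover counting error within these libraries only. For single members at 100 CPM or more, the interval reached from the level by at most 7.05% in the E15.5 library, which had most cells and UMIs in all, and by at most 22.8% in that of E14.5, which had fewest. With 1 library per stage no test was possible, and a ratio is read against a fixed size of 2-fold and against all genes.

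**Figure D1:**
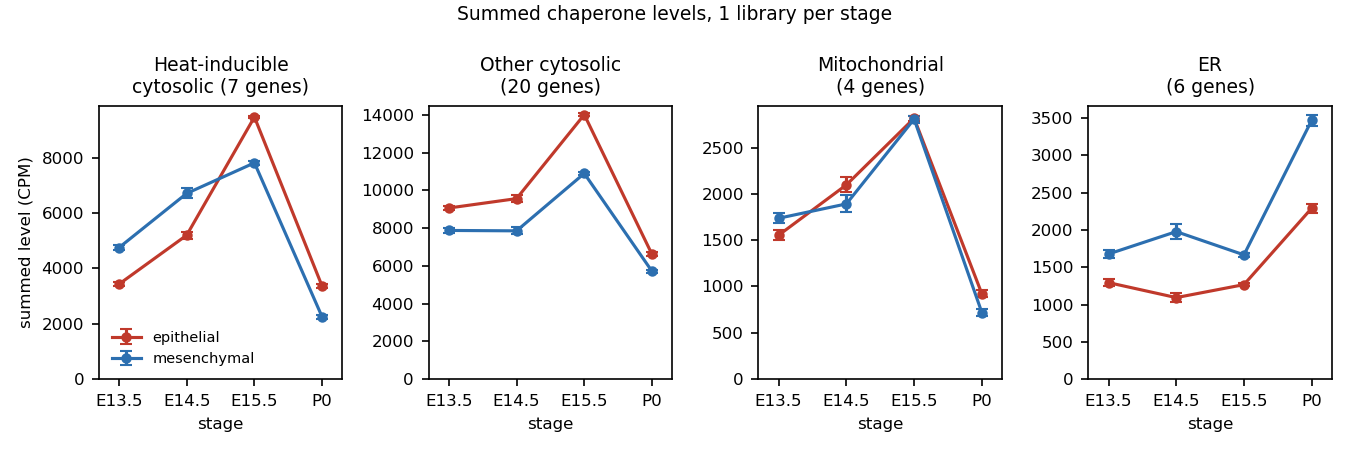
Summed level in CPM (vertical axis, from 0, own scale in each panel) by stage for 7 heat-inducible cytosolic members, the 20 other cytosolic members, 4 mitochondrial and 6 ER members in epithelial (red) and mesenchymal (blue) cells, 1 library per stage, with exact 95% Poisson intervals. The first 3 panels peak at E15.5 in both tissues, and the ER panel peaks at P0, at 2291 CPM in epithelial and 3469 CPM in mesenchymal cells.

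From E15.5 to P0, 19 of the 36 measured members were at least 2-fold lower in each tissue, a count that depends on the setting. In the other stage comparisons the counts were smaller. From E13.5 to E14.5, 4 of the 36 members were at least 2-fold higher and 1 lower in epithelial cells, against 9.60% and 3.68% of all genes, and 0 were past 2-fold in either direction in mesenchymal cells, against 4.14% and 3.04%. From E14.5 to E15.5, 5 were higher and 0 lower in epithelial cells, against 6.63% and 10.4%, and 4 were higher and 0 lower in mesenchymal cells, against 4.92% and 8.85%. With a denominator free of mitochondrial and ribosomal protein genes, the epithelial split was 5 higher and 1 lower. The P0 library stood apart from both. From E15.5 to P0, 1 member was higher and 19 lower in epithelial cells, against 10.6% and 14.8%, and 3 were higher and 19 lower in mesenchymal cells, against 10.9% and 25.1%, so that 52.8% of the members were past 2-fold lower in each tissue. In other settings the lower count went down to 15 in epithelial cells (every cell thinned to 5000 UMIs). In mesenchymal cells it went down to 12 (scaling by the median of ratios). No share of all genes was counted in the alternative settings named here. From E13.5 to P0, 3 were higher and 9 lower in epithelial cells, against 14.4% and 18.0%, and 7 were higher and 11 lower in mesenchymal cells, against 12.4% and 32.3%, and since 11 of 36 is near the last of these shares, nothing is read from it. Both P0 comparisons share the P0 library, and the steps into and out of E15.5 share that library, so a gene high in it alone counts once upwards and once downwards.

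Most genes shifted downwards too. The median log2 ratio of all genes from E15.5 to P0 was -0.16 in epithelial and -0.45 in mesenchymal cells, and that of the 36 members -1.02 and -1.12. From E13.5 to P0 the medians of all genes were -0.17 and -0.55. Scaling by the median of ratios in place of CPM brought the mesenchymal median of all genes from E15.5 to P0 to 0.02, and the members then split into 4 higher and 12 lower. With that scaling the split from E13.5 to P0 was 5 higher and 4 lower in epithelial and 7 higher and 6 lower in mesenchymal cells. With the denominator free of mitochondrial and ribosomal protein genes the latter was 5 higher and 14 lower. Shares of all genes past 2-fold were not counted with these scalings, so the splits have none beside them.

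**Figure D2:**
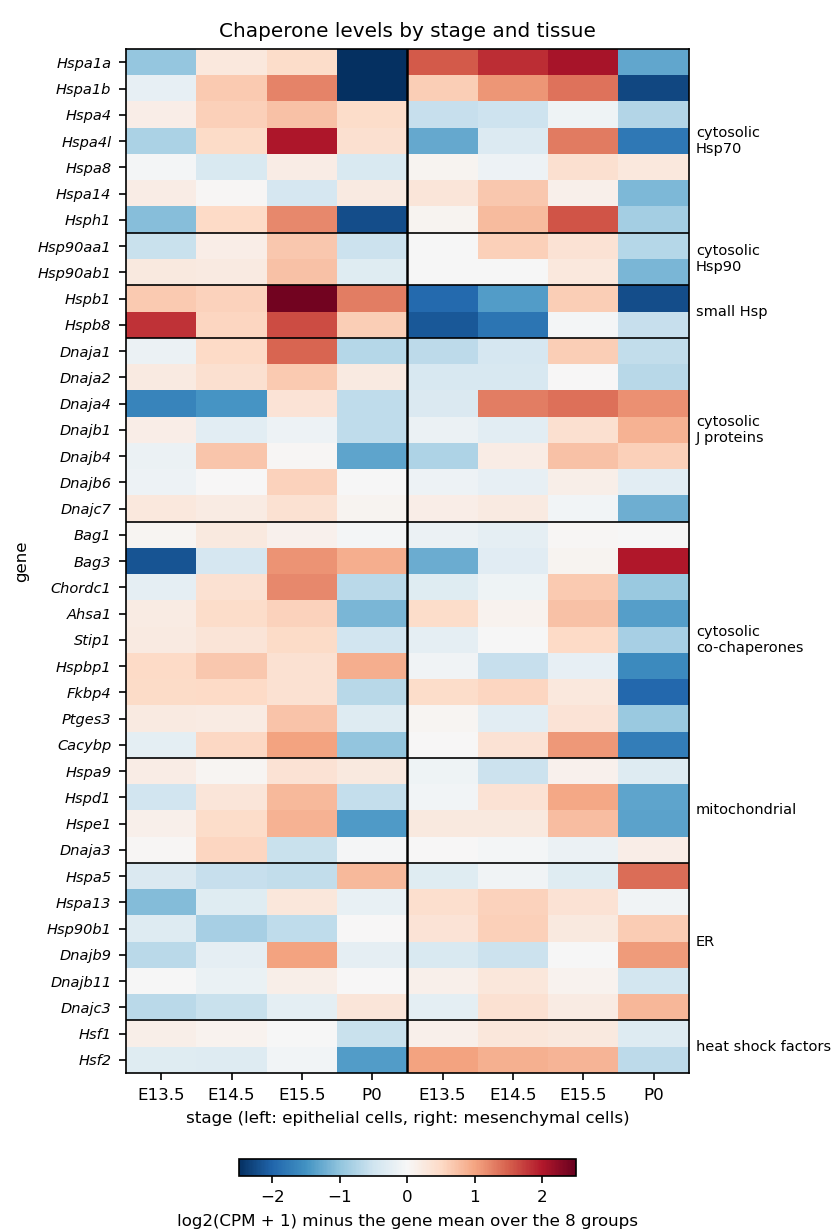
Each row is 1 of the 39 members and each column a stage, for epithelial (left 4 columns) and mesenchymal cells (right 4), and the colour gives log2(CPM + 1) minus the mean of that gene over the 8 groups, with differences beyond 2.5 drawn at the end of the scale. Hspa1a, Hspa1b and Hsph1 are blue at P0 in both tissues, Hspa5 is red there, and the row of Hspa1a is redder in the mesenchymal than in the epithelial columns of the same stage.

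The inducible Hsp70 genes Hspa1a and Hspa1b, neighbours on chromosome 17 (Hspa1a at 34969190 to 34972156 and Hspa1b at 34956436 to 34959238, both on the minus strand, GENCODE M21 on GRCm38), were past 2-fold lower at P0 than at E15.5 and than at E13.5 in both tissues. Hspa1a was at 207, 485, 559 and 26.0 CPM at the 4 stages in epithelial cells and at 1178, 1449.8, 1689.6 and 163 CPM in mesenchymal cells. Hspa1b was at 544, 982, 1491 and 111 CPM in epithelial and 965, 1341, 1615 and 129.6 CPM in mesenchymal cells. Both genes were higher at each successive embryonic stage and lower at P0 than at any embryonic stage, in both tissues. From E15.5 to P0 the ratio of Hspa1a was 0.0465 (0.0361 to 0.0590) in epithelial and 0.0963 (0.0870 to 0.106) in mesenchymal cells, and that of Hspa1b 0.0741 (0.0658 to 0.0832) and 0.0802 (0.0716 to 0.0896). From E13.5 to P0 the ratios of Hspa1a were 0.126 (0.0959 to 0.163) and 0.138 (0.124 to 0.153). Those of Hspa1b were 0.203 (0.178 to 0.232) and 0.134 (0.119 to 0.151), so the summed P0 level was also under that of the earliest library. The E13.5 sums came mostly from a minority of the cells, and the intervals treat UMIs as independent. After thinning, 10 of the 98 epithelial cells held 72.0% of the E13.5 UMIs of the 2 genes. In mesenchyme, 14 of the 135 cells held 62.1%. The median cell had 1 UMI of the 2 genes at E13.5 and 0 at P0 in both tissues. The ratios from E13.5 to P0 thus compare sums, not the level of most cells. The epithelial ratio of Hspa1a from E13.5 to E14.5, 2.34 (2.07 to 2.66), was past 2-fold in 6 of 10 other settings, and its log2 value ranged over them from 0.52 to 1.55.

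Hsph1, the Hsp110 exchange factor of Hsp70, followed the same course. It was at 95, 284, 459 and 42.1 CPM in epithelial and 208, 348, 600.1 and 111 CPM in mesenchymal cells, in the order of the stages, with ratios from E15.5 to P0 of 0.0917 (0.0752 to 0.111) and 0.185 (0.164 to 0.209). Hsp90aa1, the inducible cytosolic Hsp90, was at 1431, 2364, 3341 and 1461 CPM in epithelial and 2099.7, 3187, 2721 and 1292 CPM in mesenchymal cells. From E13.5 to P0 its epithelial ratio was 1.02 (0.972 to 1.07), and from E15.5 to P0 it was 0.437. In mesenchymal cells it peaked at E14.5 rather than E15.5.

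The other genes of the heat-inducible list did not move alike. Hspb1 (Hsp27), a small heat shock protein that keeps unfolded proteins soluble, was at 999, 947, 3407 and 1550.3 CPM in epithelial and 164, 242, 974 and 136 CPM in mesenchymal cells. It stood 3.60 (3.40 to 3.81) times higher at E15.5 than at E14.5 in epithelial and 4.02 (3.50 to 4.65) times in mesenchymal cells. Its P0 level was past 2-fold below that of E15.5 in both tissues and above that of E13.5 in epithelium. Dnajb1, the J protein that partners the inducible Hsp70, was at 147, 109, 120.4 and 83.8 CPM in epithelial and 118, 109, 172 and 239 CPM in mesenchymal cells, so that it was highest at P0 in mesenchyme and lowest there in epithelium. Bag3, which links Hsp70 to selective autophagy, was at 8.82, 31.4, 94.0 and 80.7 CPM in epithelial and 17.4, 34.6, 44.5 and 173 CPM in mesenchymal cells. From E13.5 to P0 the Bag3 ratio was 9.15 (5.65 to 15.7) in epithelial and 9.95 (7.24 to 14) in mesenchymal cells, and from E15.5 it was 0.858 (0.739 to 0.993) and 3.90 (3.37 to 4.52). In mesenchyme, Bag3 and Dnajb1 were thus higher at P0 than at any embryonic stage. Summed over its 7 genes, the heat-inducible list was at 3432, 5202, 9472 and 3354 CPM in epithelial and 4751, 6712, 7816 and 2244 CPM in mesenchymal cells. From E15.5 to P0, 5 of the 7 genes were past 2-fold lower in each tissue, against 14.8% and 25.1% of all genes. Their median log2 ratios were -1.19 and -2.43.

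The cytosolic members outside the heat-inducible list had smaller median falls from E15.5 to P0, in epithelium by little (-1.02 against -1.19), and most were lower. From E13.5 to P0 their epithelial sum fell more than that of the list in CPM, with ratios of 0.729 and 0.977. The median log2 ratios went the other way, at -0.49 against -0.82 for the list. With scaling by the median of ratios the sums had ratios of 0.847 and 1.13, so that the sum of the list was then not lower at P0. Hspa8 (Hsc70), the constitutive Hsp70, was at 1798, 1425, 2111 and 1427 CPM in epithelial and 1938, 1697, 2451 and 2220.3 CPM in mesenchymal cells, and no step between stages reached 2-fold. Hsp90ab1, the constitutive Hsp90, was at 4023, 4005, 5671 and 2787 CPM in epithelial and 3396, 3397, 4086 and 1554 CPM in mesenchymal cells. Its P0 level was 0.491 times that of E15.5 in epithelial and 0.380 times in mesenchymal cells, the first of which is just past the 2-fold limit. Hspa4l, an Hsp110 relative, was at 13.7, 34.6, 102 and 32.5 CPM in epithelial and 9.55, 19.1, 62.0 and 6.38 CPM in mesenchymal cells, with an E15.5 peak in both, and rests on 16 to 85 UMIs in each of the other groups. The small heat shock protein Hspb8, a partner of Bag3, was at 159, 65.2, 141 and 69.2 CPM in epithelial and 9.55, 11.9, 43.0 and 29.5 CPM in mesenchymal cells, so that in epithelium a step down and a step up past 2-fold surrounded its low E14.5 value. In mesenchyme its E13.5 and E14.5 levels rest on 23 and 10 UMIs. Of the 20 cytosolic genes outside the heat-inducible list, 18 were measured. From E15.5 to P0, 10 were past 2-fold lower in epithelial and 11 in mesenchymal cells, against 14.8% and 25.1% of all genes. Their medians were -1.02 and -1.26, and 0 were past 2-fold higher in either.

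Among the J proteins, which deliver clients to Hsp70, Dnaja1 was at 997, 1558, 3013 and 675 CPM in epithelial and 698, 827, 1699 and 721 CPM in mesenchymal cells. Its P0 ratio to E15.5 was 0.224 (0.213 to 0.235) in epithelial and 0.424 (0.403 to 0.446) in mesenchymal cells. Dnajb4 was at 107, 193, 122 and 47.4 CPM in epithelial and 69.8, 135, 199.7 and 180.2 CPM in mesenchymal cells, thus lowest at P0 in epithelium and near its E15.5 level in mesenchyme. Dnaja2, Dnajb6 and Dnajc7 ranged from 39.9 to 293 CPM over the 8 groups, and 1 step of theirs from E15.5 to P0 passed 2-fold, that of Dnajc7 in mesenchymal cells at 0.444 (0.356 to 0.549). Dnaja4, under the level minimum, ranged from 1.96 to 23.0 CPM.

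Most of the cytosolic co-chaperones work with Hsp90. Of the 8 measured, 5 were past 2-fold lower from E15.5 to P0 in epithelial cells, against 14.8% of all genes. In mesenchymal cells 6 were lower, against 25.1%, and 1, Bag3, was higher, against 10.9%. Ahsa1, which stimulates the ATPase of Hsp90, was at 105, 125, 136 and 40.9 CPM in epithelial and 126, 96.7, 152 and 34.3 CPM in mesenchymal cells. Fkbp4, an immunophilin in Hsp90 complexes with steroid receptors, was at 161, 164, 152 and 71.5 CPM in epithelial and 160.3, 169, 139 and 29.1 CPM in mesenchymal cells, about level over the embryonic stages and lower at P0. Cacybp was at 173, 295, 415 and 104 CPM in epithelial and 208, 265, 443 and 61.8 CPM in mesenchymal cells, with P0 ratios to E15.5 of 0.250 (0.220 to 0.282) and 0.140 (0.118 to 0.164). Chordc1, Stip1 and Ptges3 were at 51.4 to 589 CPM over the 8 groups, and their ratios from E15.5 to P0 lay between 0.268 and 0.515 in both tissues. Bag1 was at 95.5 to 133 CPM and had no ratio past 2-fold. Hspbp1, under the level minimum, ranged from 3.59 to 24.9 CPM. The remaining Hsp70 relatives Hspa4 and Hspa14 ranged from 105 to 290 CPM and from 16.4 to 59.7 CPM, and the reads of Hspa14 cannot be kept apart from Gm45902, a listed gene that overlaps its exons on the same strand.

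The heat shock factors were expressed at low level in every group. Hsf1, the main stress-activated factor, was at 14.2 to 26.2 CPM over the 8 groups, with ratios from E15.5 to P0 of 0.674 (0.466 to 0.951) in epithelial and 0.657 (0.459 to 0.923) in mesenchymal cells. Hsf2, which acts in development as well as in stress, was at 24.5, 24.3, 29.2 and 11.1 CPM in epithelial and 62.7, 57.3, 56.1 and 19.1 CPM in mesenchymal cells. Hsf2 was past 2-fold lower at P0 in both tissues. Hsf1 is activated by modification and trimerisation of its protein, which mRNA counts do not show.

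Of the mitochondrial chaperones, the pair that forms the matrix chaperonin moved with the cytosolic members. Hspd1 (Hsp60) was at 431, 745, 1062 and 399.7 CPM in epithelial and 571, 767, 1180.4 and 240.5 CPM in mesenchymal cells. Hspe1 (Hsp10), its lid, was at 922, 1161, 1536 and 314 CPM in epithelial and 999.8, 998, 1437 and 332 CPM in mesenchymal cells. Both peaked at E15.5 in both tissues. The P0 ratio to E15.5 was 0.376 (0.353 to 0.401) and 0.204 (0.187 to 0.221) for Hspd1 and 0.204 (0.190 to 0.219) and 0.231 (0.215 to 0.248) for Hspe1, in epithelial and mesenchymal cells. The 2 genes are those with the shared promoter shown above. Hspa9 (mortalin), the matrix Hsp70, ranged from 112 to 209 CPM, and its ratios from E15.5 to P0 were 0.927 (0.842 to 1.02) and 0.735 (0.648 to 0.830), so the 3 measured members did not move alike. Dnaja3 was at 9.79 to 22.0 CPM, under the level minimum, and its exons overlap those of Vasn. Another mitochondrial list, of the proteases Lonp1, Clpp, Clpx, Yme1l1 and Afg3l2 with Trap1 and Grpel1, summed to 369.8, 439.8, 373 and 359 CPM in epithelial and 364, 363, 304 and 252 CPM in mesenchymal cells. Of its 7 genes, 1 (Afg3l2) was past 2-fold higher and 0 lower from E15.5 to P0 in epithelial cells, against 10.6% and 14.8% of all genes. In mesenchymal cells 0 were past 2-fold, against 10.9% higher and 25.1% lower, and the medians of the tissues were 0.20 and -0.50.

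Among the ER chaperones, Hspa5 was past 2-fold higher at P0 in both tissues, and the other members differed less and in both directions. Hspa5 (BiP), the ER Hsp70 on chromosome 2, was at 631, 543, 529.8 and 1418 CPM in epithelial and 656, 764, 655 and 2140.2 CPM in mesenchymal cells at the 4 stages in order. It was the only member past 2-fold higher at P0 than at E15.5 in both tissues, by 2.68 (2.57 to 2.78) in epithelial and 3.27 (3.14 to 3.40) in mesenchymal cells, and against E13.5 its ratios were 2.25 (2.11 to 2.40) and 3.26 (3.08 to 3.45). Hsp90b1 (Grp94), the ER Hsp90, was at 488, 342, 393 and 614 CPM in epithelial and 769.8, 919, 723 and 947 CPM in mesenchymal cells. It was highest at P0 in both, by less than 2-fold over E15.5, and Gm15344, which overlaps its exons, is listed in every table but that of E15.5. Dnajb9 (ERdj4), an unfolded protein response target that recruits BiP, was at 47.5, 65.2, 156 and 65.4 CPM in epithelial and 58.5, 52.5, 75.8 and 162 CPM in mesenchymal cells, so from E15.5 to P0 it was lower in epithelium, at 0.419 (0.357 to 0.490), and higher in mesenchyme, at 2.14 (1.88 to 2.43). The mesenchymal ratio was past 2-fold in 6 of 10 other settings, and its log2 value ranged over them from 0.71 to 1.55. Dnajc3 (p58IPK) ranged from 46.0 to 132 CPM and was highest at P0 in both tissues, with ratios to E15.5 of 1.46 (1.26 to 1.68) and 1.55 (1.35 to 1.77). Hspa13 and Dnajb11 ranged from 22.5 to 72.8 CPM and were below their E15.5 level at P0. Among the 6 ER members, 1 was past 2-fold higher and 1 lower from E15.5 to P0 in epithelial cells, against 10.6% and 14.8% of all genes. In mesenchymal cells 2 were higher and 0 lower, against 10.9% and 25.1%. A count of 1 in 6 is near these shares, and nothing is read from it. The medians were 0.20 in epithelial and 0.51 in mesenchymal cells. Without Hspa5, the ratio of the ER sum from E15.5 to P0 was 1.18 (1.13 to 1.24) in epithelial and 1.31 (1.26 to 1.37) in mesenchymal cells. The 3 members with the ER stress response element, Hspa5, Hsp90b1 and Dnajc3, had a ratio above 1 in both tissues, but only Hspa5 passed 2-fold. Dnajb9, with no match to the element in its window, was at 2.14 in mesenchymal and 0.419 in epithelial cells. Hspa13 had no promoter entry, and whether the element bears on these levels was not tested.

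Most genes of the unfolded protein and integrated stress responses were past 2-fold higher at P0 than at E15.5 in epithelium, and the difference between the tissues was not tested. The list of 11 genes such as Atf4, Xbp1 and Herpud1 summed to 821, 612, 633 and 1562 CPM in epithelial and 873, 795, 827 and 1259 CPM in mesenchymal cells. At P0 against E15.5, 6 of its 8 measured genes were past 2-fold higher in epithelial cells, with Herpud1 at 4.67 and Ddit3 at 1.12 as the ends of the range, against 10.6% of all genes, and 1 (Xbp1, at 2.07) in mesenchymal cells, against 10.9% of all genes, where Asns was lowest at 0.635. Nothing in this list was past 2-fold lower, and its medians were 1.35 and 0.41. The ER folding enzymes and lectins, such as Calr, Canx and P4hb, were flat by comparison, with medians of 0.42 and -0.18. In each tissue 1 of 9 (Ero1l, at 2.92 and 3.50) was past 2-fold higher, near the 10.6% and 10.9% of all genes. Their mesenchymal sum crossed from 0.948 to 1.30 with median-of-ratios scaling.

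**Figure D3:**
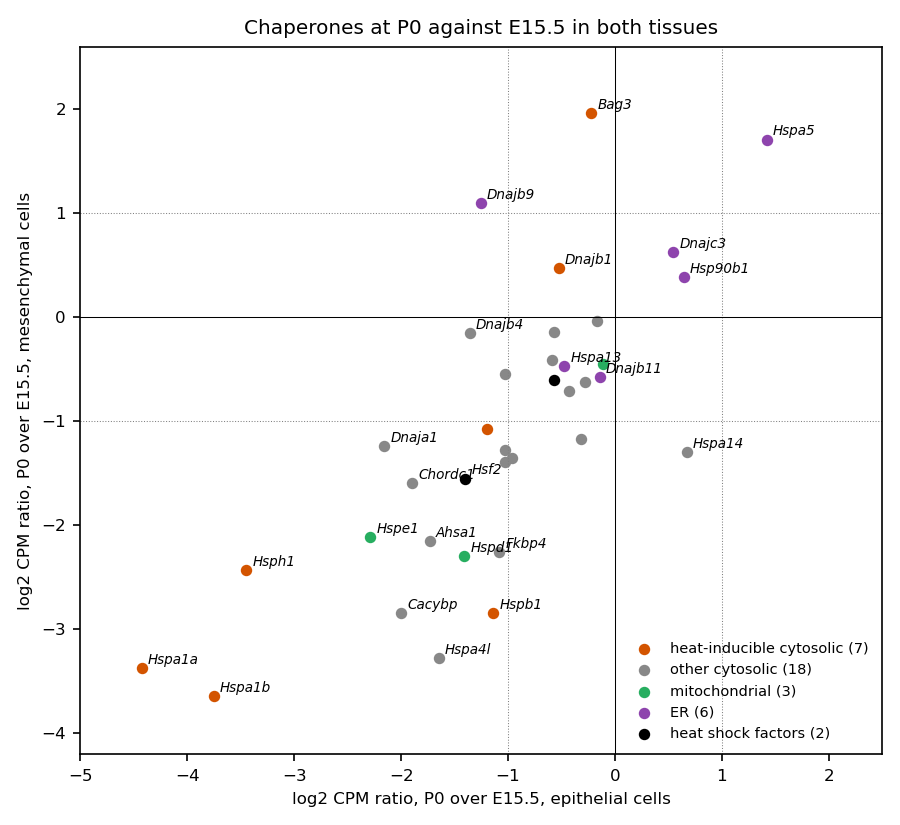
Log2 ratio of CPM from E15.5 to P0 in epithelial cells (horizontal axis) against mesenchymal cells (vertical axis) for the 36 measured members, coloured by group, with dotted lines at 2-fold. Hspa1a, Hspa1b and Hsph1 lie at the lower left, Hspa5 at the upper right, and Bag3, Dnajb1 and Dnajb9 above 0 in mesenchymal cells only.

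The other cytosolic folding machines and stress genes did not move as 1 block. The TRiC chaperonin, which folds actin and tubulin, summed over the stages to 1849, 1961, 1954 and 1310.0 CPM in epithelial and 1748, 1512, 1677 and 818 CPM in mesenchymal cells, without an E15.5 peak, and Cct6a was left out since its identifier is not in the E15.5 table. Of its 7 measured genes, 0 were past 2-fold lower from E15.5 to P0 in epithelial and 4 in mesenchymal cells. Prefoldin, which hands clients to TRiC, had 0 and 2 of 6 genes past 2-fold lower. Of all genes, 10.6% were higher and 14.8% lower in that comparison in epithelial cells, and 10.9% and 25.1% in mesenchymal cells. The mesenchymal prefoldin count is near that share, and nothing is read from it. The same shares stand beside the counts of the lists that follow. Immediate early genes such as Fos, Jun and Egr1 summed to 2766, 4078, 4143 and 3831 CPM in epithelial and 3554, 5781, 3666 and 7896 CPM in mesenchymal cells, so in mesenchyme they were highest at P0, where Hspa1a and Hspa1b were lowest. From E15.5 to P0, 8 of the 13 were past 2-fold higher and 0 lower in mesenchymal cells, led by Fosb at 8.80, and 3 were higher and 1 lower in epithelial cells, where Nr4a1 was highest at 6.38 and Atf3 lowest at 0.311. Oxidative stress genes such as Hmox1 and Srxn1 summed to 267, 324, 393 and 939 CPM in epithelial and 211, 266, 266 and 1329 CPM in mesenchymal cells, with 3 and 4 of 5 measured genes past 2-fold higher from E15.5 to P0. Proliferation genes were lower at P0, with 4 of 13 past 2-fold in epithelial and 13 of 13 in mesenchymal cells. Without cells holding 2 or more UMIs of Top2a and Mki67, 17 members in epithelial and 18 in mesenchymal cells were past 2-fold lower from E15.5 to P0. With all cells the count was 19 in each tissue. Shares of all genes were not counted in this setting. Hspa1a, Hspa1b, Hsph1 and Hspa5 were among the members still past 2-fold in both tissues. The cut was made on unthinned UMIs and so depends on depth, which was lowest at P0. Whether any of these lists bears on the chaperone levels was not tested.

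Between the tissues, the small heat shock proteins were higher in epithelial cells and Hspa1a was higher in mesenchymal cells at every stage, though none was confined to 1 tissue. Epithelial over mesenchymal, 2 members were past 2-fold higher and 4 lower at E13.5, against 8.70% and 16.0% of all genes, and 3 were higher and 3 lower at E14.5, against 12.3% and 16.4%. At E15.5, 4 were higher and 1 lower, against 13.3% and 15.7%, and at P0 7 were higher and 6 lower, against 22.0% and 14.8%. The P0 split was 5 higher and 7 lower with median-of-ratios scaling and 10 higher and 5 lower with the denominator free of mitochondrial and ribosomal protein genes. Shares of all genes were not counted with these alternatives. Hspb1 had an epithelial over mesenchymal ratio of 6.07 (5.45 to 6.78), 3.91 (3.37 to 4.56), 3.50 (3.41 to 3.59) and 11.4 (10.2 to 12.8) at the 4 stages, and Hspb8 one of 16.6 (10.9 to 26.6), 5.46 (2.83 to 11.8), 3.28 (2.91 to 3.70) and 2.35 (1.78 to 3.12). Hspa1a had the reverse, with 0.175 (0.158 to 0.194), 0.334 (0.303 to 0.369), 0.331 (0.322 to 0.340) and 0.160 (0.122 to 0.207). These 3 genes were past 2-fold in the same direction in all 4 libraries. Hsf2 was past 2-fold lower in epithelial cells at E13.5 and E14.5, at 0.391 (0.278 to 0.541) and 0.425 (0.262 to 0.682), and Hspa4, an Hsp110, was past 2-fold higher at E14.5 and P0, at 2.17 (1.74 to 2.74) and 2.28 (1.97 to 2.64). The ER sum was lower in epithelial than in mesenchymal cells at each stage, with ratios of 0.553 to 0.771.

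The 2 inducible Hsp70 genes split differently between the tissues. Hspa1a made up 27.5% (25.3 to 29.9), 33.0% (30.9 to 35.2), 27.3% (26.8 to 27.8) and 19.0% (15.1 to 23.5) of the UMIs of Hspa1a and Hspa1b in epithelial cells at the 4 stages, with exact 95% binomial intervals. In mesenchymal cells it made up 55.0% (53.6 to 56.3), 51.9% (49.9 to 54.0), 51.1% (50.5 to 51.8) and 55.7% (52.0 to 59.3). The ranges of the tissues did not overlap in any of the 4 libraries, although the summed level differed more than 10-fold between stages. These ranges treat UMIs as independent, while 10 of the 98 E13.5 epithelial cells held 72.0% of the thinned UMIs of the pair. In single cells with 10 or more UMIs of the pair, the median share of Hspa1a by stage was 22.8%, 29.5%, 22.9% and 20.8% in epithelium. These rest on 30, 25, 454 and 2 cells. In mesenchyme it was 56.25%, 53.7%, 50.5% and 41.7%, over 49, 23, 265 and 17 cells. The P0 mesenchymal quartiles were 33.3% and 68.75%, so P0 cells say little. The coding sequences are 99.4% identical and the 3' UTRs, on which 3' end counting rests, 48.1%, with at most 24 identical bases in a row, so reads in the UTR can be told apart, while any read in the coding part would be ambiguous. How the counting treated such reads is not given in the sources used here.

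**Figure D4:**
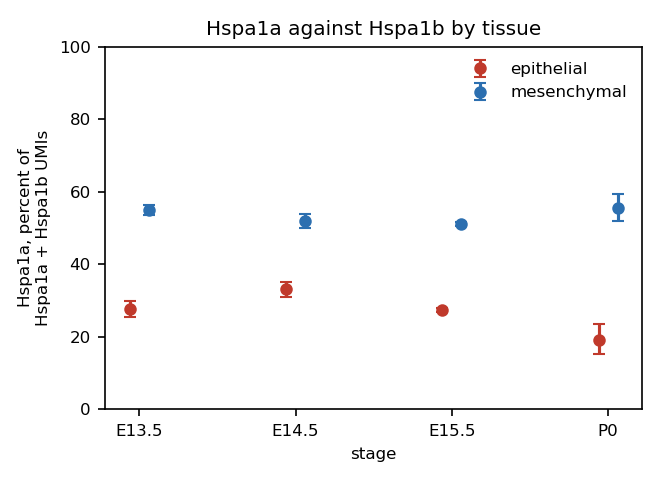
Share of Hspa1a in percent of the UMIs of Hspa1a and Hspa1b (vertical axis, 0 to 100) by stage in epithelial (red) and mesenchymal (blue) cells, with exact 95% binomial intervals and 1 library per stage. The epithelial shares lie between 19.0% and 33.0% and the mesenchymal ones between 51.1% and 55.7%.

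Within the embryonic libraries, Hspa1a and Hspa1b were less evenly spread over the cells than Hsp90ab1, the mitochondrial or the ER members. After each cell was thinned to 5000 UMIs, the median cell had 1, 3, 8 and 0 UMIs of the pair in epithelial and 1, 11, 13 and 0 in mesenchymal cells at the 4 stages. The 95th percentiles were 32.1, 35.0, 30.4 and 3.00 UMIs in epithelial and 53.1, 45.5, 44.9 and 5.40 UMIs in mesenchymal cells. At E13.5 most cells thus had few UMIs and a minority had as many as the upper cells of E15.5. At E15.5 the median and both quartiles were higher than at E13.5, while the 95th percentiles were not. The lower quartile was 0 at E13.5 in both tissues and 3 and 7 UMIs at E15.5 in epithelial and mesenchymal cells. At P0 nearly all cells were near 0. Of the UMIs of the pair, the highest 10% of the cells held 72.0%, 53.5% and 32.5% in epithelial and 62.1%, 42.1% and 30.0% in mesenchymal cells of the embryonic stages in order. For Hsp90ab1 that share was 16.7% to 23.2% over the 8 groups, for the mitochondrial sum 21.7% to 29.7%, and for the ER sum 20.4% to 30.5%. At P0 the pair has too few UMIs, 185 and 367 in all, to set its share against those sets. Without thinning, the median E15.5 cell had 1571 CPM of the pair in epithelial and 2471 CPM in mesenchymal cells, and the median P0 cell 90.9 and 0 CPM.

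**Figure D5:**
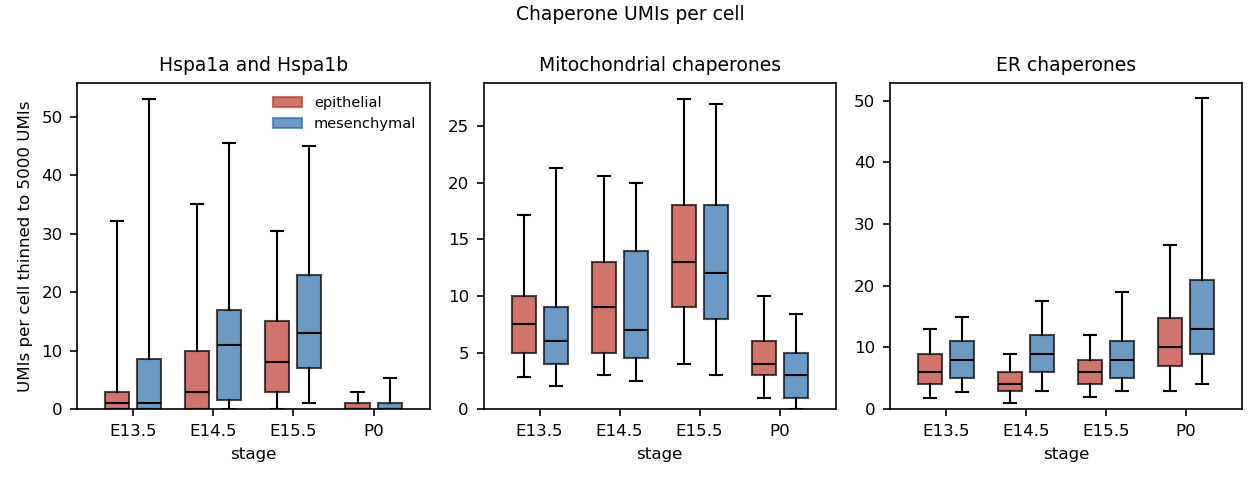
UMIs per cell after thinning each cell to 5000 UMIs, for Hspa1a with Hspa1b, the 4 mitochondrial and the 6 ER members, by stage in epithelial (red) and mesenchymal (blue) cells (box, quartiles with the median as a line, and whiskers at the 5th and 95th percentiles, each panel on its own scale from 0). The E13.5 boxes of the first panel sit near 0 under long whiskers, the E15.5 boxes are lifted as a whole with medians of 8 and 13 UMIs, and the ER panel is highest at P0.

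Across the cells of the embryonic libraries, the pair went with Hsp90aa1 and Hsph1 more than with the ER sum, for Hsph1 in E13.5 epithelium by little (0.21 against 0.19). Spearman's rho between the thinned UMIs of the pair and those of Hsp90aa1 was 0.40, 0.57, 0.45 and 0.16 in epithelial and 0.49, 0.61, 0.30 and 0.19 in mesenchymal cells at the 4 stages. With Hsph1 it was 0.21, 0.39, 0.33 and -0.01 in epithelial and 0.40, 0.77, 0.33 and 0.25 in mesenchymal cells, and with Hspa8 it lay between 0.11 and 0.64 over the 8 groups. In E15.5 epithelium the value for Hspa8, 0.64, was above those for Hsp90aa1 and Hsph1. In embryonic mesenchyme the values for the immediate early genes, 0.50, 0.71 and 0.33 by stage, were above those for Hsp90aa1. With Dnaja1 rho lay between -0.06 and 0.32 over the 8 groups. With the ER sum it lay between -0.06 and 0.19, with the immediate early genes between 0.12 and 0.71, with the mitochondrial share of UMIs between -0.21 and 0.11 and with depth between -0.10 and 0.17. These are descriptions over 31 to 532 cells of 1 library each, which share its handling, and low counts weaken them, at P0 above all.

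In the E13.5 epithelium, the cells with most Hspa1a and Hspa1b also carried Anxa1. This gene encodes annexin A1 and was used, after the values were seen, to split the epithelial cells of each stage by 1 or more UMIs after thinning, and such UMIs were found in 39 of the 98 cells at E13.5. These had 1693 CPM of Hspa1a and Hspa1b, against 259 CPM in the other 59 cells, a ratio of 6.54 (5.80 to 7.40). All 10 cells that made up the highest 10% for the pair were among them, with 16 to 74 UMIs of the pair per 5000. Without those 10 cells the ratio was 1.86 (1.58 to 2.19). Hspb1 was 5.81 (5.25 to 6.43) times higher in the Anxa1 cells and still 4.37 (3.92 to 4.89) times higher without the 10. Hsp90aa1 was 1.57 (1.46 to 1.69) times higher with the 10 and 1.05 (0.957 to 1.15) times without them, and Hspa5 0.873 (0.774 to 0.983) times. The Anxa1 cells also had more Krt7 and Krt19, keratins of simple and surface epithelia, with ratios of 5.86 and 6.79. They had less of the basal factor Trp63, at 0.269. The basal keratins went opposite ways, with more Krt5, at 1.78, and less Krt14, at 0.475 (0.431 to 0.522). The luminal keratin Krt8 was higher in the Anxa1 cells. Skin and mammary cells were not separated in this split. The same split gave 0.583 at E14.5, with only 7 Anxa1 cells, 0.814 at E15.5 and 1.67 at P0 for the pair. At E13.5 the splits by Cd74 and Cxcl14 were past 2-fold for the pair as well. Their ratios were 0.244 (9 cells with Cd74 against 89) and 0.282 (79 cells with Cxcl14 against 19). Within the E15.5 epithelium the splits by Cd74, Anxa1 and Cxcl14 gave ratios from 0.615 (Hsph1 by Anxa1) to 1.42 (Hsph1 by Cd74) for the members and sums compared, so none of these was past 2-fold. The single members compared were Hspa1a, Hspa1b, Hsph1, Dnaja1, Hspb1, Hspa5, Hspd1 and Hsp90aa1, and the others were not compared there. These ratios compare cells of 1 library, and their intervals cover counting error only.

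The mitochondrial share of UMIs, which is often high in damaged cells, differed between the stages, and its part in the Hsp70 levels was not tested. Its median was 3.66%, 5.11%, 5.01% and 3.87% in the epithelial and 3.40%, 4.45%, 4.27% and 1.49% in the mesenchymal cells kept. With mitochondrial UMIs left out of the total, Hspa1a and Hspa1b stood at 1301, 1772, 2123 and 2261 CPM in E15.5 epithelial cells with up to 3%, 3% to 4%, 4% to 5% and 5% to 6% mitochondrial UMIs, the first of which rests on 14 cells, and Spearman's rho between that share and the thinned UMIs of the pair was 0.05 over the 532 cells. In E15.5 mesenchymal cells the same bins had 2704, 3904, 3484 and 2862 CPM, the first from 19 cells. At P0, the bins of 20 or more cells had 100.4 to 273 CPM in epithelial and 305 CPM in mesenchymal cells.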

How the data were processed

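Cells of 4 libraries (10x 3' single-cell RNA sequencing, 1 library per stage) were analysed from the UMI counts per gene and cell barcode that the authors deposited. The authors aligned reads and counted UMIs with Cell Ranger, 6.0.0 on mm10 in the submitters' processing notes, while the header of the E15.5 table names 3.1.0. The count tables list different genes, so genes were matched by Ensembl identifier, and the deposited barcodes all held 500 UMIs or more.

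UMIs of the kept cells were summed by stage and tissue and scaled to CPM. A ratio of at least 2 or at most 0.5 among genes with a mean of 20 CPM or more over the 8 groups was read as past 2-fold, a rule of size. A level of 0 stands for up to 3 counts. PCR reads were collapsed by UMI, and intervals cover counting error only. The members, gene lists and comparisons were chosen with earlier results of these data known. Full values are given for Hspa1a, Hspa1b, Hspa5, Hspa8, Hsp90aa1, Hsp90ab1, Hsp90b1, Hspb1, Hspd1, Hspe1, Hsph1 and Dnajb1 and for members past 2-fold in at least 3 of the 8 stage comparisons, and ranges for the others. Of other lists, counts, medians and the genes at the ends of the range are given. No doublet caller was run, doublets had been gated out in the sort, and cells with clear markers of 1 tissue alone served as an alternative. The code (Python 3.11.15, numpy 2.4.6, scipy 1.17.1, pandas 2.3.3, biopython 1.88, matplotlib 3.10.9) was tested on simulated data. Other cell limits, scalings, tissue calls and thresholds were tried.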

Additional observations from a re-analysis of the deposited data

Results flagged for a closer look

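Some members differed from stage to stage in opposite directions in the tissues, with the intervals of both ratios on opposite sides of 1, and this difference between tissues was not tested, since each stage is 1 library. From E15.5 to P0, the CPM ratio was 1.59 in epithelial and 0.407 in mesenchymal cells for Hspa14, 0.858 and 3.90 for Bag3, 0.419 and 2.14 for Dnajb9, and 1.46 and 0.326 for Hspbp1, which was under the level minimum. From E13.5 to P0, it was 0.436 in epithelial and 3.09 in mesenchymal cells for Hspb8, 0.568 and 2.03 for Dnajb1, and 0.442 and 2.58 for Dnajb4. In 5 of these 7 genes (Bag3, Dnajb9, Hspb8, Dnajb1 and Dnajb4) the mesenchymal ratio was the one above 1. The share of all genes with such opposite ratios was not counted, so nothing is read from this number.

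Barcodes left out of every comparison for holding more than 6% mitochondrial UMIs carried inducible Hsp70 too. At E15.5, Hspa1a and Hspa1b together were at 2622 CPM (2573 to 2671) in 231 such epithelial barcodes and at 4129 CPM (3929 to 4336) in 40 such mesenchymal ones, with mitochondrial UMIs left out of the total. The kept cells had 2157 and 3451 CPM on the same scale. At P0, the 37 epithelial barcodes left out had 120.4 CPM (81.8 to 171) and the kept cells 142 CPM.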

How the results depend on the processing

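The direction of all 116 differences past 2-fold between groups for a member was kept in each of 10 other settings of cells and scaling, and between 92 (size factors by the median of ratios) and 116 of them stayed past 2-fold. Counts of members past 2-fold moved by over 1.5 times as follows. With a threshold of 1.5-fold they were 13, 11 and 19 for E14.5 over E13.5, E15.5 over E14.5 and P0 over E13.5 in epithelial cells, 6 and 12 for the first 2 of these in mesenchymal cells, and 12, 13, 12 and 22 between the tissues over the 4 stages in order. With size factors by the median of ratios, E15.5 over E14.5 gave 8 in epithelial and 7 in mesenchymal cells. With every cell thinned to 5000 UMIs, the tissues differed in 12 members at E14.5. For E14.5 over E13.5 in mesenchymal cells, where the count was 0, it was 2 with a mitochondrial maximum of 10%, 1 with a UMI minimum of 3000, 3 after thinning, 2 as a mean of per-cell CPM, 2 without cycling cells, and 1 with a level minimum of 5 CPM or none. Shares of all genes were not counted in these settings, so none stands beside the counts. The cause of these shifts was not tested, apart from the lower threshold, which counts more by construction. Leaving out the 4 cells rich in hemoglobin, an alternative chosen after seeing the data, changed no count. No paired analysis between stages was possible because each stage has 1 library. The 2 tissues of a stage share its library, and their ratios are given stage by stage without a test. The E14.5 groups, of 45 and 31 cells, limit the precision most.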
